A study of Homo sapiens with 24 samples.

Results

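Aminoacyl-tRNA synthetases are the enzymes that join each amino acid to its transfer RNA, and the genes for them, cytosolic and mitochondrial, were followed here through asparagine withdrawal and ISRIB treatment of cultured lung cancer cells. The members were chosen by gene symbol: 39 symbols were listed, namely 20 cytosolic enzymes, 16 mitochondrial enzymes (symbols ending in 2) and 3 scaffold proteins of the multi-synthetase complex. Of these, 38 had a row among the 37411 genes of the count table, and 1 cytosolic enzyme is not analysed here. After a filter on low counts 36 members were tested: 18 cytosolic, 15 mitochondrial and 3 scaffold genes.

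The cells were PC9, an established human line that the labels describe as non-small cell lung cancer. They were kept for 24 or 6 h in RPMI medium without or with asparagine, and each medium carried either 200 nM ISRIB or vehicle (0.004% DMSO). At each time the groups were ISRIB without asparagine, vehicle without asparagine, ISRIB with asparagine and vehicle with asparagine. These 8 groups held 3 libraries apiece (24 in all), which the design text calls biological triplicates. All groups share 1 cell line, a change into fresh medium at the start of treatment and prior growth in dishes, so no group represents untouched cells.

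In the textbook view, an amino acid shortage leaves tRNAs uncharged, and these activate the kinase GCN2, which phosphorylates the initiation factor eIF2. This slows translation in general while raising that of the transcription factor ATF4, part of what is called the integrated stress response. Many cytosolic synthetase genes are known ATF4 targets through a composite DNA element bound by ATF4 with C/EBP proteins. ISRIB binds the exchange factor eIF2B and keeps it active despite phosphorylated eIF2, which blunts this response. Cytosolic synthetases either act free in the cytosol or sit in the multi-synthetase complex, held together by AIMP1, AIMP2 and EEF1E1 (also called AIMP3). A separate nuclear gene set, with names ending in 2, charges tRNAs inside mitochondria, while KARS and GARS serve both compartments.

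Library totals ran from 16737384 to 27495861 assigned reads, with 22911 to 25642 genes having at least 1 read. Of the markers checked, the epithelial genes EPCAM, KRT8, KRT18, KRT19 and CDH1 were abundant in every library (KRT8 at 3183 to 4767 CPM, a gene's reads scaled to a common library total), while the lung lineage genes NKX2-1, SFTPB and NAPSA did not exceed 0.107, 0.104 and 0.704 CPM. Fibroblast and leukocyte markers were near 0 apart from COL1A1 (3.59 to 13.1 CPM). Among the endothelial genes, CDH5 ran from 2.45 to 55.4 CPM and PECAM1 from 0.739 to 5.67 CPM, while VWF did not exceed 0.374 CPM. By representation of GC-rich transcripts, 2 libraries stood apart: replicate 3 of the ISRIB group with asparagine at 24 h and replicate 3 of the asparagine-free ISRIB group at 6 h. Their slopes of log2 level on GC content were -0.38 and -0.37 per 10 percentage points. The next lowest, replicate 1 of the ISRIB group with asparagine at 6 h, was at -0.20, and the other 21 libraries ran from -0.18 to 0.22. An alternative described here left out these 3 libraries of lowest slope.

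The letters of the element named above were looked for around the start of each gene. The RefSeq promoter windows (build GRCh38.p14, 250 bases before to 50 bases after a transcript start, where current symbols such as GARS1 and AARS1 replace the older ones) were available for 33 members. They were searched on both strands for the core of the C/EBP-ATF element, TGATGNAA. It was present in 8 of the 33 members, against 1217 of all 27305 genes with a window (4.46%), or 1270 of 35116 windows (3.62%). The 8 sites are printed because 6 of them lie in genes that rose at 6 h of asparagine withdrawal; each is 30 bases long, reads in the direction of the gene, and has the match in capitals. Positions count from the first transcribed base of the matching window's own start as 1. Some genes had more than 1 window, and a match in any of them was counted. GARS, TARS and CARS held the match in 1 window and 0 matches in the other.
GARS, chr7:30594834-30594863, plus strand, positions -33 to -26: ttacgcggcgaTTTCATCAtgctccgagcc
AARS, chr16:70289675-70289704, minus strand, positions -187 to -180: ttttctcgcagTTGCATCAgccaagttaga
MARS, chr12:57488053-57488082, plus strand, positions -4 to 4: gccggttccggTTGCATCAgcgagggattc
TARS, chr5:33440956-33440985, plus strand, positions 3 to 10: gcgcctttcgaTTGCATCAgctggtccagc
NARS, chr18:57621804-57621833, minus strand, positions 15 to 22: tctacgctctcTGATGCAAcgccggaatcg
IARS, chr9:92293692-92293721, minus strand, positions -13 to -6: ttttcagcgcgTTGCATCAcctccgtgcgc
CARS, chr11:3057407-3057436, minus strand, positions -2 to 6: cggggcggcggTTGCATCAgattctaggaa
YARS2, chr12:32756076-32756105, minus strand, positions -197 to -190: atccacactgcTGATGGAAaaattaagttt

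The GARS and AARS sites are also shown in the full 250 bases before the start of the matching window's transcript. These genes had the largest responses to ISRIB at 6 h.
GARS, chr7:30594628-30594877, plus strand: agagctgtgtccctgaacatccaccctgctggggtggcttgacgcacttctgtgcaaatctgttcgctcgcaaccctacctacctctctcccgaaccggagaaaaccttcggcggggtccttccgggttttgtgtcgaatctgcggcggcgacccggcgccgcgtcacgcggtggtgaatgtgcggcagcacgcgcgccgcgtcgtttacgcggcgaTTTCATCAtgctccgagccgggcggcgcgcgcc
AARS, chr16:70289507-70289756, minus strand: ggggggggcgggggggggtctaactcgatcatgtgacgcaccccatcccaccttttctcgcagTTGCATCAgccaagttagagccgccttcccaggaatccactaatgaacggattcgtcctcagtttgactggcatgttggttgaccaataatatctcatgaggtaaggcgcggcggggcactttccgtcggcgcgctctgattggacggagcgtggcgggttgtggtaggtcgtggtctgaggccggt

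In 6 of the 8 sites (AARS, CARS, IARS, MARS, NARS and TARS) the match was exactly TGATGCAA or its complement, a form found in the windows of 295 of 27305 genes (1.08%). This second count was added after the sites were seen. By class, the core was present in 7 of 16 cytosolic genes with a window, 1 of 14 mitochondrial genes and 0 of 3 scaffold genes. No window was available for DARS, LARS, YARS, AARS2 and VARS2. A match is a description of the letters and not evidence of binding.

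The genes differed widely in level. In vehicle-treated cells with asparagine at 6 h, TARS, the threonine enzyme, stood highest per kilobase of exon at 119 ± 6.17 CPM per kb (mean ± SD, n = 3). Next came FARSB (a phenylalanine enzyme subunit, 83.6 ± 11.7), KARS (lysine, 75.9 ± 4.46), the mitochondrial isoleucine enzyme IARS2 (75.0 ± 1.96) and EPRS (glutamate and proline, 69.9 ± 9.32 CPM per kb), whose order lies within their spread. The medians over genes were 36.5 CPM per kb for cytosolic, 8.66 for mitochondrial and 22.0 for scaffold genes. At the low end, the mitochondrial serine enzyme SARS2 had 16 to 51 reads per library, 0.414 ± 0.0386 CPM per kb. The cytosolic cysteine gene CARS had 3 reads over all 24 libraries and the mitochondrial valine gene VARS2 had 1, so neither was tested. Within 250 kb, 6 of 7 protein-coding neighbours of CARS and 5 of 5 of VARS2 also had under 100 reads over the 24 libraries, against 25.9% of all protein-coding genes. The near-absence of CARS and VARS2 reads is therefore shared by their neighbourhoods, and the cause was not tested.

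Asparagine withdrawal for 6 h under vehicle raised many of the cytosolic genes. Of 18 tested, 10 rose and 0 fell, with a median log2 fold change of 0.45; of 15 mitochondrial genes 1 rose and 0 fell (median 0.04), and of the 3 scaffolds 0 changed (median 0.08). In all, 11 of 36 members rose, against 3.31% of the 17409 genes tested that rose, 1.26% that fell and 4.57% that were called in either direction (edgeR quasi-likelihood test, adjusted p below 0.05), whose median was 0.01. Summed over the class, the cytosolic genes held 5308, 4903 and 5593 CPM in the libraries without asparagine, against 3982, 3679.9 and 4167 CPM in those with it. The mitochondrial sum was 823 ± 17.0 CPM without asparagine and 803 ± 13.4 CPM with it (SD, n = 3 each). The cytosolic sums did not overlap between groups. The mitochondrial sums differed little but were higher without asparagine in each of the 3 pairs of libraries with the same replicate number, at 814, 812 and 842 CPM without and 803, 789 and 816 CPM with asparagine. The difference between the classes was not itself tested. In such bulk RNA, fewer cells of a kind and less RNA per cell cannot be told apart.

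**Figure D1:**
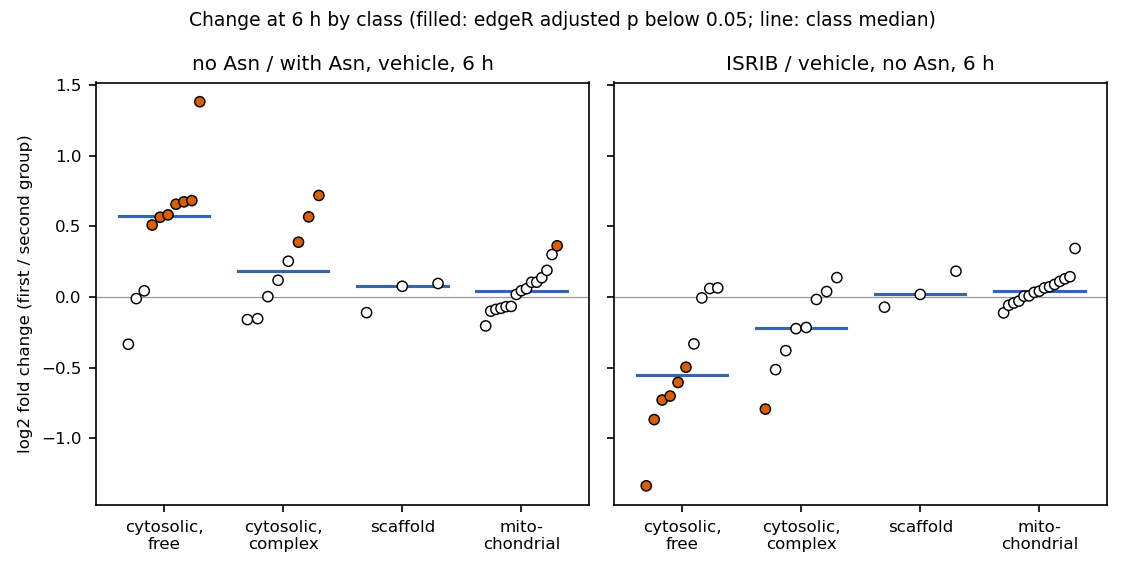
Log2 fold change (y axis) of the 36 tested genes by class, for vehicle cells without over with asparagine at 6 h (left panel) and ISRIB over vehicle without asparagine at 6 h (right panel). Filled points passed edgeR's adjusted p below 0.05 and lines are class medians, which for free cytosolic enzymes lie at 0.57 in the left panel and -0.55 in the right one.

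Free cytosolic enzymes made up most of the response, with 7 of 10 risen and a median log2 fold change of 0.57. GARS, which charges glycine, had 299, 267 and 341 CPM in the vehicle libraries without asparagine, against 118, 106 and 124 CPM in those with it. Every asparagine-free library exceeded every library with asparagine by more than 2-fold, and the log2 fold change was 1.38 ± 0.12 (SE, edgeR adjusted p = 2.31e-07), the largest of the 36. SARS, the serine enzyme, had 221, 223 and 225 CPM without asparagine and 138, 139 and 140.2 CPM with it. Its libraries were tightly grouped and apart, at a log2 fold change of 0.68 ± 0.06 (edgeR adjusted p = 2.49e-07). For WARS, which charges tryptophan, the values were 172, 152 and 169 CPM without asparagine and 108, 99.1 and 103 CPM with it, a log2 fold change of 0.67 ± 0.07 (edgeR adjusted p = 1.79e-06). The alanine enzyme AARS stood at 268, 249 and 244 CPM without asparagine, against 172, 151 and 161 CPM with it (log2 fold change 0.66 ± 0.09, edgeR adjusted p = 4.83e-05).

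The tyrosine enzyme YARS had 278, 252 and 288 CPM without asparagine and 180.1, 173 and 193 CPM with it, which gave a log2 fold change of 0.58 ± 0.08 (edgeR adjusted p = 2.45e-05). In TARS, the most abundant member, the counts were 1006, 948 and 1059 CPM without asparagine, against 684, 642 and 711 CPM with it, a log2 fold change of 0.56 ± 0.11 (edgeR adjusted p = 0.00170). None of these groups overlapped, which held for 15 of the 36 members in this comparison. The share of all genes without overlap is not given, so this count has no background to be read against. The remaining free enzymes did not pass: HARS (histidine) had a log2 fold change of -0.01 ± 0.06, and the phenylalanine subunits FARSA and FARSB, whose proteins work as 1 enzyme, had -0.33 ± 0.19 and 0.04 ± 0.14. FARSA and FARSB were thus on opposite sides of 0 with neither past the threshold.

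NARS, the enzyme that charges tRNA with asparagine itself, was also among those that rose. It had 253, 222 and 258 CPM without asparagine, against 173, 162 and 179 CPM with it, at a log2 fold change of 0.51 ± 0.12 (edgeR adjusted p = 0.0124). By size it ranked behind GARS, SARS, WARS, AARS, YARS and TARS of the free enzymes. The difference in response between NARS and any other enzyme was not tested.

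Among the 8 enzymes of the multi-synthetase complex, 3 rose, with a median of 0.19. EPRS, the enzyme for both glutamate and proline, had 618, 537 and 725 CPM without asparagine, against 377, 332 and 433 CPM with it (log2 fold change 0.72 ± 0.18, edgeR adjusted p = 0.0245). Its libraries scattered widely but did not overlap between groups. MARS, the methionine enzyme, had 239, 223 and 224 CPM without asparagine and 153, 152 and 159 CPM with it, a log2 fold change of 0.57 ± 0.10 (edgeR adjusted p = 0.00114). IARS, the isoleucine enzyme, was at 0.39 ± 0.10 (edgeR adjusted p = 0.0309), with 485 ± 46.6 CPM without asparagine and 371 ± 38.3 CPM with it (SD, n = 3 each). QARS, which charges glutamine, had the largest p of the cytosolic genes: 108, 115 and 98.4 CPM without asparagine and 100.3, 118 and 104 CPM with it, overlapping throughout, with a log2 fold change of 0.00 ± 0.13 (edgeR adjusted p = 0.994). The other complex enzymes LARS (leucine), DARS (aspartate), KARS (lysine) and RARS (arginine) had log2 fold changes of 0.25 ± 0.10, 0.12 ± 0.16, -0.15 ± 0.07 and -0.16 ± 0.13, none past the threshold.

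The scaffolds and the mitochondrial enzymes gave 1 call between them. AIMP1 had 74.5, 77.4 and 91.2 CPM without asparagine and 76.3, 71.3 and 83.1 CPM with it (log2 fold change 0.08 ± 0.16, edgeR adjusted p = 0.866), and AIMP2 and EEF1E1 were at -0.11 ± 0.18 and 0.10 ± 0.12. WARS2, the mitochondrial tryptophan enzyme, had 77.5, 66.4 and 78.5 CPM without asparagine, against 58.6, 54.5 and 59.9 CPM with it, a log2 fold change of 0.36 ± 0.10 that passed narrowly (edgeR adjusted p = 0.0476). HARS2, for mitochondrial histidine, had the largest p of its class, with 37.5 ± 1.48 CPM without asparagine and 37.0 ± 0.556 CPM with it (SD, n = 3 each; log2 fold change 0.02 ± 0.08, edgeR adjusted p = 0.939). The mitochondrial asparagine enzyme NARS2 was at 0.10 ± 0.11 (edgeR adjusted p = 0.706). Mitochondrial values ran from -0.20 for EARS2 (glutamate) to 0.36 for WARS2.

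The calls differed in how much they rested on single libraries. With replicate 1 or replicate 3 of the asparagine-free vehicle group left out, or replicate 2 of the vehicle group with asparagine, 7 calls remained in each case: EPRS, NARS, IARS and WARS2 no longer passed. Without replicate 1 of the vehicle group with asparagine, EPRS, IARS and WARS2 were lost as well. Over all 33 alternatives the highest edgeR, limma or DESeq2 adjusted p was 0.143 for EPRS, 0.184 for IARS, 0.0704 for NARS and 0.201 for WARS2, and WARS2 missed the threshold in 20 of the 33. In the other 7 genes (GARS, SARS, WARS, AARS, YARS, MARS and TARS) it was at most 0.0162, in TARS. Calls were also gained after a correction for GC content. RARS then fell, at -0.27 ± 0.04, and the mitochondrial gene TARS2 rose, at 0.20 ± 0.06 (edgeR adjusted p = 6.06e-05 and 0.0201).

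Some genes share sequence or position with others. Exons of MARS overlap those of DDIT3, a stress-response gene on the opposite strand that averaged 20.7 CPM without asparagine and 7.31 CPM with it. The strandedness of the libraries is not given in the sources used here, so reads in the shared stretch cannot be told apart. DDIT3 was called in the same direction as MARS both here and with ISRIB in asparagine-free cells at 6 h, where its log2 fold change was -1.37. The same applies to WARS with WDR25 (6.03 CPM without and 4.85 CPM with asparagine) and YARS with S100PBP (28.8 CPM without and 22.9 CPM with asparagine), neither of them called. GARSP1, a pseudogene of GARS, was at 2.12 CPM without asparagine and 0.983 CPM with it, and was called higher (log2 fold change 1.11, edgeR adjusted p = 0.0487). With ISRIB in asparagine-free cells at 6 h GARSP1 was called lower, at -1.85 (edgeR adjusted p = 0.00325). NARSP2, a pseudogene of NARS, was at 10.7 CPM without and 8.47 CPM with asparagine and was called in neither comparison.

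Set beside the promoter sites, 10 of the 11 risen genes had a window and 6 of these held the core: AARS, GARS, IARS, MARS, NARS and TARS. Of the 22 tested genes with a window that did not pass, 1 held it, the mitochondrial tyrosine gene YARS2. Within the cytosolic class the core was found in 6 of 9 risen genes and in 0 of 6 that did not pass. EPRS, SARS and WARS rose without a match to these letters in the window searched. No test was made of these counts, since the members and the element were chosen with the response known.

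ISRIB lowered 7 cytosolic genes in cells without asparagine at 6 h. Of the 18 tested, 7 fell and 0 rose, with a median log2 fold change of -0.36, against 1.64% of the 17409 genes that fell and 2.19% called in either direction. Of the 15 mitochondrial genes (median 0.04) and the 3 scaffolds (median 0.02), 0 passed. The fallen genes were 6 of the 10 free enzymes and 1 of the 8 complex enzymes. This comparison uses the same asparagine-free vehicle libraries as the withdrawal comparison at 6 h, on the opposite side, so the values of each are given and their likeness is no separate result.

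GARS had 109.7, 105 and 144 CPM in asparagine-free cells with ISRIB, against 299, 267 and 341 CPM with vehicle, a log2 fold change of -1.34 ± 0.12 (edgeR adjusted p = 2.11e-07). The highest ISRIB library was replicate 3, with its GC slope of -0.37, and it too lay far below the vehicle libraries. AARS was at 154, 138 and 126 CPM with ISRIB and 268, 249 and 244 CPM with vehicle (log2 fold change -0.87 ± 0.09, edgeR adjusted p = 1.61e-06). MARS, the only complex enzyme to pass, had 146, 138 and 112 CPM with ISRIB, against 239, 223 and 224 CPM with vehicle (log2 fold change -0.79 ± 0.10, edgeR adjusted p = 2.83e-05). In SARS the libraries again stood close together within each group, at 132, 140.2 and 132 CPM with ISRIB and 221, 223 and 225 CPM with vehicle (log2 fold change -0.73 ± 0.06, edgeR adjusted p = 8.31e-08).

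WARS had 104, 99.8 and 99.9 CPM with ISRIB and 172, 152 and 169 CPM with vehicle (log2 fold change -0.70 ± 0.07, edgeR adjusted p = 1.28e-06). YARS and TARS fell by 0.61 and 0.50 on the log2 scale (edgeR adjusted p = 2.09e-05 and 0.00869). TARS was lost without replicate 2 of the ISRIB group, without replicate 3 of the vehicle group, and when these groups were fitted alone (highest adjusted p 0.214). Over all 36 members, 9 did not overlap between these groups, a count given without its share over all genes. The 7 called genes were among them, with every ISRIB library below every vehicle library.

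NARS did not pass here. It had 184, 171 and 228 CPM with ISRIB and 253, 222 and 258 CPM with vehicle, a log2 fold change of -0.33 ± 0.12 (edgeR adjusted p = 0.219), and the groups overlapped through replicate 3 with ISRIB. EPRS was at -0.51 ± 0.18 (edgeR adjusted p = 0.219) and IARS at -0.38 ± 0.10 (edgeR adjusted p = 0.0582), and their highest ISRIB values, 578 and 421 CPM, also came from that replicate. With the replicate number as a block, IARS passed at -0.38 ± 0.08 (edgeR adjusted p = 0.0119). After the correction for GC content 12 members passed, the 7 above among them: EPRS was then at -0.58 ± 0.09, IARS at -0.42 ± 0.06, NARS at -0.36 ± 0.06 and LARS at -0.28 ± 0.06 (edgeR adjusted p = 1.26e-04, 7.41e-05, 2.35e-04 and 0.00210), and MARS2, the mitochondrial methionine enzyme, rose by 0.35 ± 0.09 (edgeR adjusted p = 0.0188). Leaving out the 3 libraries of lowest GC slope likewise gave 12 calls.

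**Figure D2:**
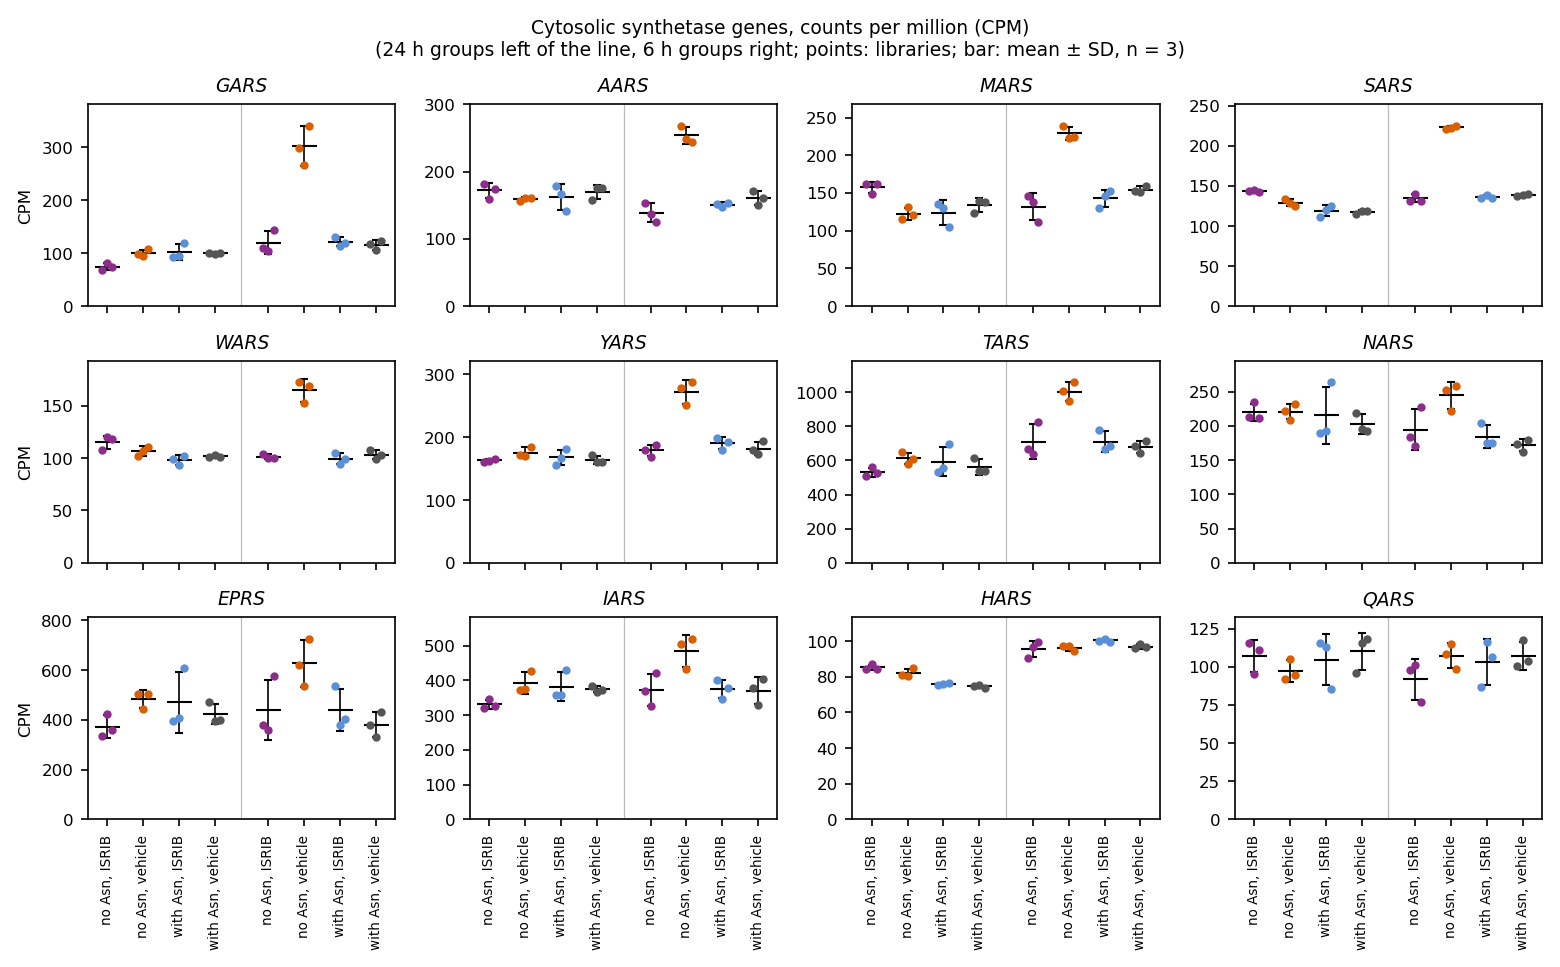
CPM (y axis, from 0) of 12 cytosolic genes in each library of the 8 groups (x axis), 24 h groups left of the vertical line and 6 h groups right of it; bars are mean ± SD, n = 3. GARS, AARS, MARS, SARS, WARS, YARS and TARS stand highest in the vehicle group without asparagine at 6 h, where GARS reached 299, 267 and 341 CPM.

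Where asparagine was present, ISRIB gave no call at either time. Of the 36 members 0 passed at 6 h and 0 at 24 h, against 0% of all genes each time. An unadjusted p below 0.05 was found in 0 members (edgeR). It was rare over all genes as well, in 203 and 248 of the 17409, so the 0 members are near that background. DESeq2 also called 0 members in both. NARS had 184 ± 16.8 CPM with ISRIB and 172 ± 8.73 CPM with vehicle at 6 h (SD, n = 3 each), a log2 fold change of 0.10 ± 0.12 (edgeR adjusted p = 0.956). At 24 h it had 215 ± 41.9 CPM with ISRIB and 203 ± 14.3 CPM with vehicle, a log2 fold change of 0.09 ± 0.12 (edgeR adjusted p = 0.997).

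With ISRIB present, asparagine withdrawal for 6 h likewise gave 0 of 36 calls by edgeR, against 2.3% of all genes, with a median of -0.03 over cytosolic and 0.11 over mitochondrial genes. DESeq2 called 1 member, lower, and the correction for GC content gave 3: TARS2 and WARS2 higher at 0.30 ± 0.06 and 0.22 ± 0.06, and RARS lower at -0.17 ± 0.04 (edgeR adjusted p = 0.00116, 0.0269 and 0.00820). GARS had 109.7, 105 and 144 CPM without asparagine and 131, 114 and 119.6 CPM with it, overlapping. NARS was at 194 ± 30.2 CPM without asparagine and 184 ± 16.8 CPM with it (log2 fold change 0.07 ± 0.12, edgeR adjusted p = 0.890).

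The test of the difference itself, the withdrawal response under ISRIB minus that under vehicle at 6 h, was passed by 6 members, all cytosolic and all negative, against 0.661% of genes negative, 0.0574% positive and 0.718% called. GARS had -1.41 ± 0.17 (edgeR adjusted p = 6.43e-05), AARS -0.77 ± 0.13, SARS -0.70 ± 0.09, MARS -0.68 ± 0.14, YARS -0.67 ± 0.11 and WARS -0.65 ± 0.10 on the log2 scale. MARS had the highest adjusted p of the 6, 0.0185, and missed the threshold in 6 of 33 alternatives, 5 of which left out 1 library: replicate 1 or 2 of the vehicle group with asparagine, replicate 1 of the vehicle group without it, or replicate 2 or 3 of the ISRIB group with it. NARS was at -0.44 ± 0.17 (edgeR adjusted p = 0.633). After the GC correction 10 passed, the 6 above with TARS, EPRS, NARS and IARS.

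By 24 h under vehicle the withdrawal response was not detected. Of 36 members 0 passed by edgeR and 0 by DESeq2, against 0.00574% of all genes, and 3 (SARS, AIMP1 and HARS) had an unadjusted p below 0.05, as did 1271 of the 17409 genes. GARS had 99.3, 94.3 and 107 CPM without asparagine, against 99.7, 97.8 and 101 CPM with it, and NARS 222, 209 and 232 CPM without and 219, 196 and 193 CPM with asparagine. Both pairs of groups overlapped; for NARS the log2 fold change was 0.12 ± 0.12 (edgeR adjusted p = 0.719).

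The vehicle response at 24 h minus that at 6 h was negative in 6 members, all cytosolic, against 1.03% of genes negative and 1.22% called. The values were -1.37 ± 0.17 for GARS (edgeR adjusted p = 1.03e-04), -0.75 ± 0.13 for AARS, -0.70 ± 0.14 for MARS, -0.61 ± 0.10 for WARS, -0.55 ± 0.09 for SARS and -0.49 ± 0.11 for YARS. YARS had the highest adjusted p, 0.0186, and did not pass without replicate 1 of any vehicle group, without replicate 2 of the 6 h group with asparagine or replicate 3 of the 6 h group without it, or with no filter on low counts (highest 0.224). NARS was at -0.38 ± 0.17 (edgeR adjusted p = 0.491). After the GC correction 12 members passed in place of 6, and with no filter on low counts 3.

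**Figure D3:**
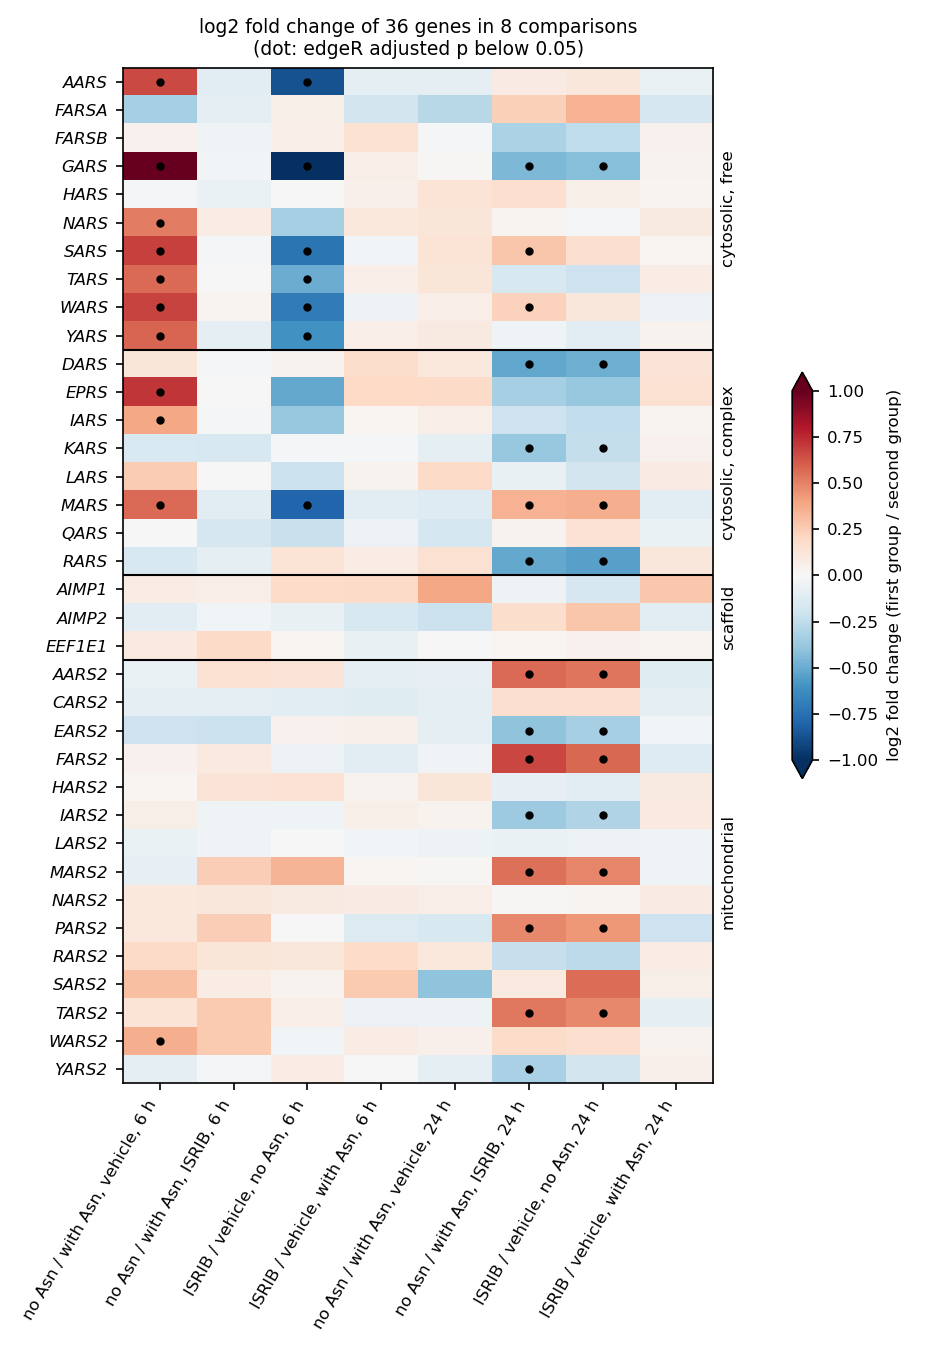
Log2 fold change (colour, first group over second, capped at 1 and -1) of the 36 tested genes (rows, by class) in the 8 pairwise comparisons (columns, 6 h then 24 h). Dots mark edgeR adjusted p below 0.05: 11 for withdrawal under vehicle and 7 for ISRIB without asparagine at 6 h, then 15 and 12 in the 24 h comparisons that share the asparagine-free ISRIB group.

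After 24 h without asparagine in the presence of ISRIB the pattern was a different one, with calls in both directions and the mitochondrial genes taking part. Against cells with asparagine and ISRIB, 8 members rose and 7 fell, while 9.97% of all genes rose and 12.2% fell (22.1% called). By class, 5 of 15 mitochondrial genes rose and 3 fell, and 3 of 18 cytosolic genes rose and 4 fell. Against asparagine-free cells with vehicle, 6 members rose and 6 fell, while 10.1% of genes rose and 11.6% fell (21.7% called); here 5 mitochondrial genes rose and 2 fell, and 1 cytosolic gene rose and 4 fell. The scaffolds gave 0 calls in both. When only the groups compared were fitted, 5 of the 15 calls against cells with asparagine remained (KARS, EARS2, FARS2, MARS2 and TARS2), and 15 members passed against vehicle, including all 12. These comparisons share the 3 asparagine-free ISRIB libraries at 24 h, so they are not independent. Calls were thus common across the whole table in each, and the count of members is read against that background.

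FARS2, the mitochondrial phenylalanine enzyme, had 19.5, 19.6 and 21.4 CPM in asparagine-free cells with ISRIB at 24 h. It had 12.5, 13.3 and 12.2 CPM with asparagine and ISRIB, and 12.8, 14.1 and 13.7 CPM without asparagine and with vehicle. Its log2 fold changes were 0.67 ± 0.10 and 0.57 ± 0.10 (edgeR adjusted p = 5.95e-05 and 3.60e-04), and it passed in all 33 alternatives of each comparison. For AARS2, the mitochondrial alanine enzyme, the values were 27.0, 22.7 and 25.6 CPM without asparagine with ISRIB, 19.3, 17.0 and 14.3 CPM with asparagine and ISRIB, and 14.9, 17.9 and 19.3 CPM without asparagine with vehicle. Every asparagine-free ISRIB library was above all others of these groups, with log2 fold changes of 0.57 ± 0.14 and 0.53 ± 0.14 (edgeR adjusted p = 0.00511 and 0.00912). In the second comparison AARS2 did not pass after the GC correction (0.31 ± 0.12) or without replicate 1 of the vehicle group (highest 0.0609).

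MARS2 had 44.3, 50.6 and 47.4 CPM in the asparagine-free ISRIB libraries, 34.3, 34.6 and 28.0 CPM with asparagine and ISRIB, and 33.7, 34.0 and 33.5 CPM without asparagine with vehicle. The log2 fold changes were 0.55 ± 0.10 and 0.49 ± 0.10 (edgeR adjusted p = 3.80e-04 and 0.00127). TARS2, the mitochondrial threonine enzyme, stood at 53.4, 52.4 and 53.1 CPM without asparagine with ISRIB, 38.9, 38.6 and 32.9 CPM with asparagine and ISRIB, and 38.8, 37.4 and 37.5 CPM without asparagine with vehicle (log2 fold changes 0.52 ± 0.09 and 0.48 ± 0.09). MARS2 and TARS2 passed in all 33 alternatives of both comparisons. PARS2, the mitochondrial proline enzyme, was at 0.48 ± 0.15 and 0.43 ± 0.15, with 5 and 6 alternatives in which it did not pass.

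Mitochondrial genes that fell were EARS2 at -0.40 ± 0.07 and -0.33 ± 0.07, IARS2 at -0.37 ± 0.07 and -0.30 ± 0.07, and YARS2 at -0.32 ± 0.10 in the first comparison. YARS2 was at -0.19 ± 0.10 in the second, which did not pass (edgeR adjusted p = 0.172). After the GC correction IARS2 was at -0.23 ± 0.06 in the first comparison and -0.13 ± 0.06 in the second, where it no longer passed (edgeR adjusted p = 0.0751). UBFD1, whose exons overlap those of EARS2 and whose level is similar, was at -0.42 and -0.26 in the same comparisons (edgeR adjusted p = 0.00119 and 0.0282), and shared reads cannot be told apart. The class therefore moved in both directions, and its summed level was 789 ± 25.8 CPM without asparagine with ISRIB, 844 ± 37.5 CPM with asparagine and ISRIB, and 825 ± 13.7 CPM without asparagine with vehicle (SD, n = 3 each).

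**Figure D4:**
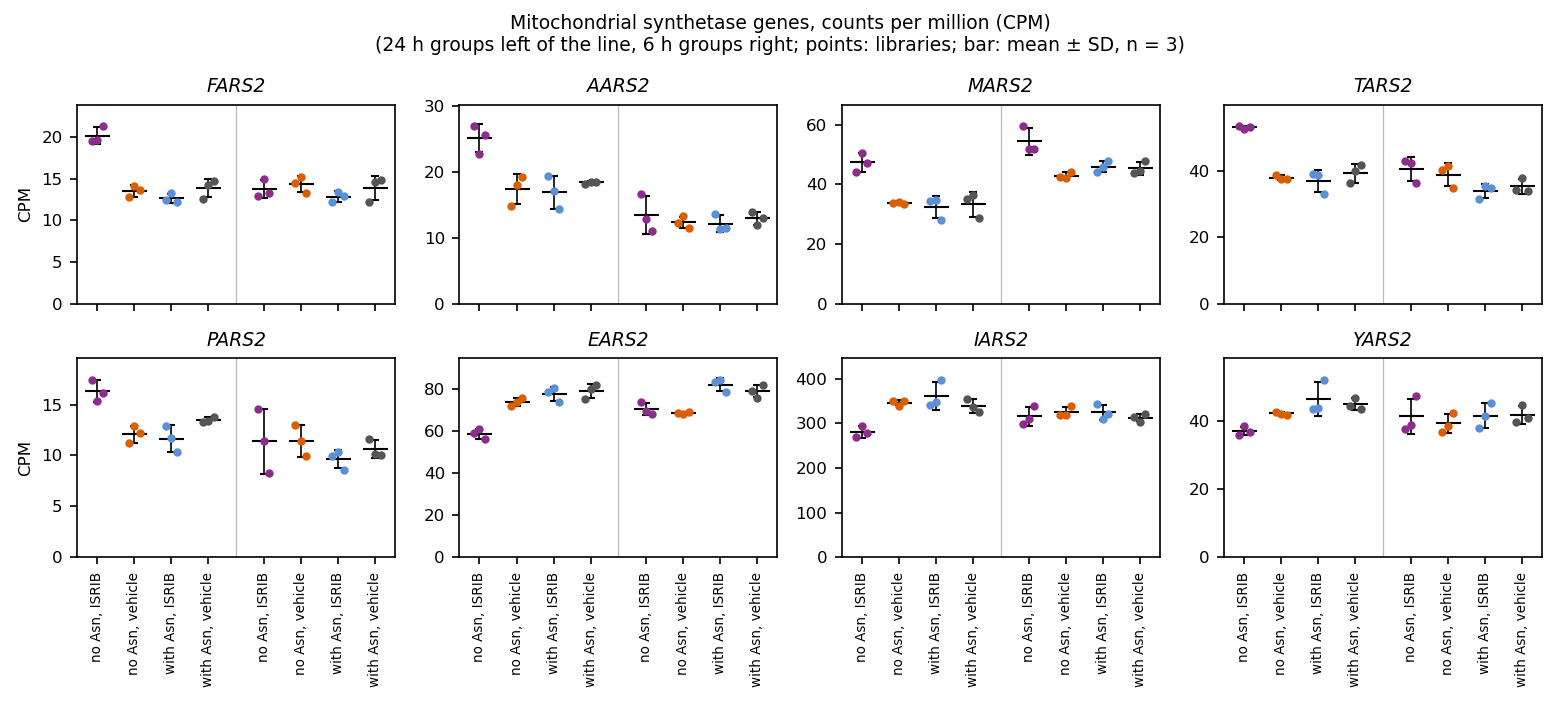
CPM (y axis, from 0) of 8 mitochondrial synthetase genes in each library of the 8 groups (x axis), 24 h groups left of the vertical line and 6 h groups right of it; bars are mean ± SD, n = 3. FARS2, AARS2, MARS2, TARS2 and PARS2 are higher, and EARS2, IARS2 and YARS2 lower, in the asparagine-free ISRIB group at 24 h than in the other groups at 24 h.

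Of the cytosolic genes, the complex enzymes DARS, RARS and KARS fell in both comparisons. DARS had 112, 134 and 113 CPM without asparagine with ISRIB, 147, 149 and 219.5 CPM with asparagine and ISRIB, and 163, 153 and 189 CPM without asparagine with vehicle. Its log2 fold changes were -0.52 ± 0.16 and -0.49 ± 0.16 (edgeR adjusted p = 0.0218 and 0.0298), and it did not pass in 4 alternatives of each. RARS had 151, 179.7 and 154 CPM without asparagine with ISRIB, 202, 211 and 276 CPM with asparagine and ISRIB, and 237, 222 and 249 CPM without asparagine with vehicle (log2 fold changes -0.51 ± 0.13 and -0.55 ± 0.13). In both genes every asparagine-free ISRIB library lay below all others of these groups. Among the 36 members 18 and 24 did not overlap in the first and second comparison, and the share over all genes is not given. The highest values with asparagine and ISRIB, 219.5 and 276 CPM, were those of replicate 3, with its GC slope of -0.38. Without that library neither gene passed in the first comparison. RARS was also lost there when the groups were fitted alone (highest edgeR adjusted p 0.0609). It passed in all 33 alternatives of the second. KARS was at -0.38 ± 0.07 and -0.24 ± 0.07.

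GARS, which was highest without asparagine under vehicle at 6 h, was lowest in the asparagine-free ISRIB group at 24 h, with 68.8, 81.4 and 74.2 CPM there, 92.7, 94.5 and 119 CPM with asparagine and ISRIB, and 99.3, 94.3 and 107 CPM without asparagine with vehicle (log2 fold changes -0.45 ± 0.12 and -0.42 ± 0.12). MARS ran the other way and rose, at 0.35 ± 0.10 and 0.37 ± 0.10. DDIT3, which overlaps MARS, also rose, at 0.68 and 0.60 (edgeR adjusted p = 0.00369 and 0.00949). GARS did not pass in 3 alternatives of each comparison, and MARS in 4 of the first and 3 of the second. SARS and WARS rose against cells with asparagine, at 0.28 ± 0.06 and 0.23 ± 0.07, and were at 0.16 ± 0.06 and 0.11 ± 0.07 against vehicle, which did not pass. Against cells with asparagine, SARS was lost in 2 alternatives and WARS in 5. WDR25, which overlaps WARS, rose at 0.92 and 0.68 (edgeR adjusted p = 0.00179 and 0.0166). NARS did not pass in either: it had 213, 234 and 212 CPM without asparagine with ISRIB, 189, 193 and 264 CPM with asparagine and ISRIB, and 222, 209 and 232 CPM without asparagine with vehicle, with log2 fold changes of 0.03 ± 0.12 and -0.01 ± 0.12 (edgeR adjusted p = 0.887 and 0.968).

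Transcript GC content and markers moved with these 24 h values. Across the 36 members the correlation of log2 fold change with GC content was 0.56 against cells with asparagine and 0.70 against vehicle, where the points share libraries and base composition. Over all 17326 genes with a GC value it was 0.28 and 0.41. Correlations as strong stood in 24 h comparisons without a called member, at -0.78 for withdrawal under vehicle and -0.76 for ISRIB with asparagine. In the first comparison the risen members had a median GC content of 53.1% and the fallen ones 47.2%, and in the second 53.7% and 44.8%. After the GC correction 16 members passed in the first comparison, including all 15 above, and 12 in the second, including 10 of the 12. Among the markers, PECAM1 had log2 fold changes of -2.19 and -1.62 in the first and second comparison, and COL1A1 had 0.82 and 0.96 (all called by edgeR). Summed endothelial markers (3 of 3 genes) lay at 3.96 to 5.08 CPM in that group, 10.9 to 11.5 CPM with asparagine and ISRIB, and 7.26 to 9.64 CPM without asparagine with vehicle. The 4 fibroblast markers summed to 9.22 to 13.1 CPM in the asparagine-free ISRIB group, 4.65 to 7.68 CPM with asparagine and ISRIB, and 4.26 to 6.78 CPM without asparagine with vehicle, with COL3A1, DCN and LUM at 0 or near 0. The part of these markers in the results was not tested.

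**Figure D5:**
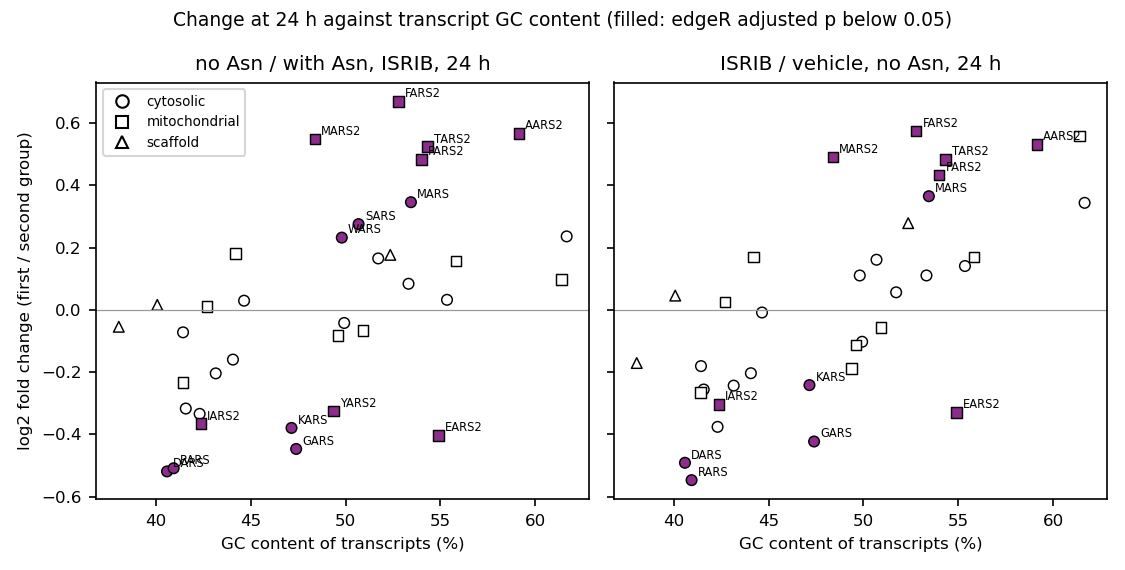
Log2 fold change (y axis) of the 36 tested genes against the GC content of their transcripts in percent (x axis), for asparagine-free over asparagine-containing medium under ISRIB (left panel) and ISRIB over vehicle without asparagine (right panel) at 24 h. Filled points passed edgeR's adjusted p below 0.05; risen genes have a median GC content of 53.1% and 53.7%, and fallen genes 47.2% and 44.8%, in the left and right panel.

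The difference between the withdrawal responses under ISRIB and under vehicle at 24 h was called in 8 members, 5 positive and 3 negative, against 3.47% and 5.59% of all genes (9.06% called). FARS2 had 0.71 ± 0.14 (edgeR adjusted p = 0.00372), RARS -0.66 ± 0.18, AARS2 0.65 ± 0.19, TARS2 0.57 ± 0.13 and MARS2 0.53 ± 0.14. The others were MARS at 0.48 ± 0.14, IARS2 at -0.40 ± 0.10 and EARS2 at -0.30 ± 0.10. FARS2 and TARS2 passed in all 33 alternatives, whereas EARS2 did not pass in 23 of them, MARS in 14, AARS2 in 11, IARS2 in 8, RARS in 7 and MARS2 in 4. The GC correction ended the calls of AARS2, then at 0.35 ± 0.18, and IARS2, then at -0.15 ± 0.08 (edgeR adjusted p = 0.174 and 0.213). The count depended on single libraries: it was 2 without replicate 2 of the vehicle group with asparagine at 24 h and 4 without its replicate 3, 3 without replicate 3 of the ISRIB group with asparagine, 4 without replicate 1 and 5 without replicate 3 of the vehicle group without asparagine, and 3 without replicate 1 and 4 without replicate 3 of the ISRIB group without asparagine. The pairwise counts moved less: 9 in place of 15 without replicate 3 of the ISRIB group with asparagine, and 7 in place of 12 without replicate 1 of the ISRIB group without it.

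Between the times, the withdrawal response under ISRIB differed in 1 member, FARS2, against 0.718% of genes with a positive difference, 1.95% with a negative one and 2.67% called. FARS2 had 0.57 ± 0.14 for the response at 24 h minus that at 6 h (edgeR adjusted p = 0.0304). It did not pass when any of 8 libraries was left out: replicate 1 or 3 of either ISRIB group at 24 h, replicate 1 or 3 of the asparagine-free ISRIB group at 6 h, or replicate 2 or 3 of the ISRIB group with asparagine at 6 h (highest adjusted p 0.186). DESeq2 called 5 members in place of 1.

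Calls for time since the medium change were no more common among the members than over all genes. In vehicle cells with asparagine, 24 h against 6 h, 2 members rose and 3 fell, against 18.8% of all genes called (9.34% rose and 9.47% fell). AARS2 had 18.1, 18.5 and 18.5 CPM at 24 h, against 13.9, 11.9 and 13.0 CPM at 6 h (log2 fold change 0.51 ± 0.14, edgeR adjusted p = 0.0145). NARS2 had 23.8, 22.8 and 20.4 CPM at 24 h and 16.7, 16.8 and 17.8 CPM at 6 h (log2 fold change 0.39 ± 0.11, edgeR adjusted p = 0.0160). MARS2 fell, with 35.0, 36.4 and 28.6 CPM at 24 h and 43.8, 44.6 and 47.8 CPM at 6 h (log2 fold change -0.45 ± 0.10, edgeR adjusted p = 0.00280).

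HARS stood at 74.7, 75.6 and 73.5 CPM at 24 h and 95.9, 98.3 and 96.5 CPM at 6 h (log2 fold change -0.38 ± 0.06, edgeR adjusted p = 1.46e-04), and SARS at 115, 118 and 119 CPM at 24 h and 138, 139 and 140.2 CPM at 6 h (log2 fold change -0.25 ± 0.06, edgeR adjusted p = 0.00681). Over all 36 members, 18 did not overlap between the times. The 5 called genes were among them, so non-overlap does not set these apart from the other members. Its share over all genes is not given. NARS was at 0.24 ± 0.12 (edgeR adjusted p = 0.175). Without replicate 2 of the 6 h group AARS2 and NARS2 no longer passed and 3 calls remained, whereas the GC correction gave 14. Of the markers, CDH5, PECAM1, CDH1 and NAPSA also changed with time in these groups (all called by edgeR). Their log2 fold changes were -2.68, 1.63, -0.26 and 2.36, with NAPSA at no more than 0.704 CPM in any library. The part of these markers was not tested.

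Other genes of tRNA supply and delivery were read for comparison: 32 were listed and 28 tested. At 6 h of withdrawal under vehicle 1 of 28 rose and 0 fell (median -0.07), against 3.31% of all genes that rose, so the count is near that background. It was XPOT, the exportin that carries tRNAs out of the nucleus, with 184 ± 15.3 CPM without asparagine and 129 ± 10.9 CPM with it (SD, n = 3 each; log2 fold change 0.51 ± 0.12, edgeR adjusted p = 0.0158). ISRIB lowered it in asparagine-free cells at 6 h to 105 ± 15.8 CPM, against 184 ± 15.3 CPM with vehicle (log2 fold change -0.81 ± 0.12, edgeR adjusted p = 2.96e-04). The only other call there was POLR3A, the largest subunit of the RNA polymerase that makes tRNA, at 0.32 ± 0.08. In the difference between the responses under ISRIB and vehicle at 6 h, XPOT was the 1 gene of 28 to pass, at -0.84 ± 0.18 (edgeR adjusted p = 0.0169).

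At 24 h, 3 of the 28 rose and 6 fell in asparagine-free ISRIB cells, both against cells with asparagine and ISRIB, where 9.97% of all genes rose and 12.2% fell, and against asparagine-free vehicle cells, where 10.1% rose and 11.6% fell. XPOT had 78.6 ± 5.06 CPM there, 143 ± 26.6 CPM with asparagine and ISRIB, and 146 ± 10.7 CPM without asparagine with vehicle (log2 fold changes -0.86 ± 0.12 and -0.89 ± 0.12). EIF2AK4, which encodes the kinase GCN2, was at -0.32 ± 0.08 and -0.42 ± 0.08, and TARSL2, a cytosolic relative of TARS, at -0.71 ± 0.17 and -0.72 ± 0.17. POLR3B, the second largest subunit of the same polymerase, had -0.52 ± 0.11 and -0.43 ± 0.11, whereas the largest subunit POLR3A rose, at 0.30 ± 0.08 and 0.28 ± 0.08. BRF2, an initiation factor subunit of that polymerase, rose at 0.52 ± 0.18 and 0.51 ± 0.18 (edgeR adjusted p = 0.0431 and 0.0479). DTD2 fell at -0.50 ± 0.15 and -0.58 ± 0.15, and QRSL1 at -0.35 ± 0.11 and -0.33 ± 0.11. TUFM, the mitochondrial factor that delivers charged tRNA to the ribosome, rose at 0.25 ± 0.08 and 0.35 ± 0.08. The difference between the withdrawal responses at 24 h was called in 6 of the 28, with 5 negative and 1 positive, against 9.06% of all genes called, and XPOT at -0.96 ± 0.18 (edgeR adjusted p = 0.00169). With time in vehicle cells with asparagine, POLR3D and PTRH2 fell by 0.57 and 0.36 on the log2 scale (2 of 28, against 9.47% of all genes that fell), and in the remaining comparisons 0 of 28 passed.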

How the data were processed

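RNA sequencing measured 24 PC9 libraries in 8 groups of 3. The authors deposited raw read counts per gene and a table of log2 values, variance-stabilised; per the submitters' processing notes the tools were Bowtie2, featureCounts and DESeq2 and the build hg38, while versions and strandedness are not given in the sources used here. From the deposited counts, edgeR 4.0.16 (R 4.3.3) fitted a quasi-likelihood model with 8 group means (TMM scaling, filterByExpr, 16 residual degrees of freedom), with Benjamini-Hochberg adjustment over all 17409 genes tested and a threshold of 0.05; fold changes carry standard errors. CPM use TMM-scaled totals, and exon lengths and GC content come from GENCODE release 29. P-values measure the spread between these replicates.

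Alternatives were DESeq2 1.42.0, RLE scaling, no filter, only the groups compared, limma 3.58.1 on the deposited log2 values, a replicate block, a GC correction (a spline with 5 degrees of freedom per library, 17326 genes), both together, leaving out the 3 libraries with the most negative GC slope, and leaving out each library in turn. Deviations from group means correlated between libraries of the same replicate number in all 3 pairs of 3 comparisons: vehicle withdrawal at 6 h (0.30 to 0.34), the same at 24 h (0.19 to 0.35), and the ISRIB effect on asparagine-free cells at 6 h (0.33 to 0.47). The procedure was tested on simulated data. The members, gene lists, motif and tests were chosen with earlier results of these data known. NARS was named in full throughout. So were up to 8 called members by size at 6 h (withdrawal under vehicle, ISRIB without asparagine) and up to 5 elsewhere. The member of each class with the largest p at 6 h was added. Of the other tRNA genes, up to 4 called per comparison were planned. For asparagine-free ISRIB cells at 24 h all that were called in the pairwise comparisons are given. Further members are given by values.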

Additional observations from a re-analysis of the deposited data

Results flagged for a closer look

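These values differ between groups by a test of the difference itself (edgeR, adjusted p below 0.05); no explanation was weighed. For the withdrawal response under ISRIB minus that under vehicle at 6 h there were 6 such members, with GARS at -1.41, AARS at -0.77, SARS at -0.70, MARS at -0.68 and YARS at -0.67 on the log2 scale. At 24 h there were 8, with FARS2 at 0.71, RARS at -0.66, AARS2 at 0.65, TARS2 at 0.57 and MARS2 at 0.53.

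For the vehicle response at 24 h minus that at 6 h there were 6 members, with GARS at -1.37, AARS at -0.75, MARS at -0.70, WARS at -0.61 and SARS at -0.55. Under ISRIB the same difference was called in 1 member, FARS2, at 0.57. All groups had 3 libraries, so single libraries were not tested for lying apart from their group.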

How the results depend on the processing

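No member changed direction in any alternative of a comparison in which it was called. Of the 71 calls of members over all comparisons, 71 held with DESeq2, 71 with the replicate block, 70 with RLE scaling, 70 with limma on the deposited log2 values, 67 after the GC correction, 53 with no filter on low counts and 53 when only the groups compared were fitted. Counts of called members that moved by over 1.5 times were as follows, and the cause was not tested. With DESeq2, withdrawal under ISRIB at 6 h gave 1 in place of 0, and its difference between 24 and 6 h gave 5 in place of 1. The GC correction gave 3 in place of 0 for withdrawal under ISRIB at 6 h, 12 in place of 7 for ISRIB without asparagine at 6 h, 10 in place of 6 for the difference between responses at 6 h, 12 in place of 6 for the vehicle response at 24 h minus 6 h, 3 in place of 1 for that under ISRIB and 14 in place of 5 for time.

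The GC correction with replicate block gave 3, 12, 10, 12, 5 and 15 for these. With the 3 libraries of lowest GC slope left out, ISRIB without asparagine gave 12 at 6 h and 20 at 24 h (no left-out library belongs to the 24 h comparison, so this count does not bear on GC content there), the ISRIB response at 24 h minus 6 h gave 0 and time gave 11. Fitting the compared groups alone gave 5 in place of 15 for withdrawal under ISRIB at 24 h, 4 in place of 8 for the difference between responses at 24 h, 0 for the ISRIB response at 24 h minus 6 h and 9 for time. With no filter the vehicle response at 24 h minus 6 h gave 3 and that under ISRIB 0.

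Leaving out 1 library at a time gave 7 to 11 calls for withdrawal under vehicle at 6 h, 9 to 16 for withdrawal under ISRIB at 24 h, 6 to 10 and 7 to 13 for ISRIB without asparagine at 6 and 24 h, 5 to 7 and 2 to 12 for the differences between responses at 6 and 24 h, 5 to 6 and 0 to 1 for the vehicle and ISRIB responses at 24 h minus 6 h, 3 to 7 for time and 0 throughout for the others. With the replicate number as a block, 11 members were called for withdrawal under vehicle at 6 h. For ISRIB without asparagine at 6 h 8 were called, where IARS was gained. The block gave 16 for withdrawal under ISRIB and 13 for ISRIB without asparagine at 24 h, whose replicate numbers did not pair. It gave 11 for the difference between responses at 24 h, where pairing was not examined, and otherwise the same counts. Read number limits the precision for SARS2, CARS and VARS2 were too low to test for a reason that was not tested, and groups of 3 libraries limit all tests.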
